A study of Mus musculus with 24 samples.

Results

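Among the array probes without a protein-coding RefSeq name, 102 responded to interferon (IFN) epsilon in ID8 cells, an established ovarian cancer line of mouse that derives from epithelium of the ovarian surface. A probe was chosen if its name did not start with NM_ or XM_ (the prefixes of RefSeq coding transcripts), if it was well above background on at least 2 of the 3 arrays of cells given 1000 IU/ml IFN epsilon, and if its mean deposited log2 value on these arrays was at least 1.5 above that of the 6 untreated arrays. The 102 probes carry 92 names and come from 25745 probes without a coding RefSeq name, among 56605 on the array. They were therefore selected on the untreated and the 1000 IU/ml IFN epsilon measurements, so differences between those groups are given as a description, with no test. Just inside the threshold lay a probe for Slfn10-ps at 1.502 (A_66_P130199), and just outside it a probe for 9030619P08Rik at 1.49. The largest difference was 5.82, and 70 of the 102 probes differed by 2 or more.

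The cells were exposed for 3 h to IFN epsilon or IFN beta, both recombinant mouse proteins, at 10, 100 or 1000 IU/ml, and untreated cells received PBS as vehicle. Both are type I interferons: IFN epsilon is produced constitutively in epithelium of female reproductive organs, and IFN beta is released by many cells on virus infection. Each group had 3 biological replicates made on separate dates, numbered 1 to 3, except IFN beta at 10 and at 100 IU/ml, where the labels mark the third array as excluded and 2 remained. Each untreated sample was measured on 2 arrays, which were averaged, giving 19 samples in 7 groups. Levels below are log2 signals relative to the array's 75th percentile, so a level of 0 equals that percentile and negative levels are dimmer. As whole cultures were measured, fewer responding cells and less RNA per cell cannot be told apart.

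Type I interferons bind a shared receptor, and the signal reaches the nucleus through transcription factors that bind the interferon-stimulated response element (ISRE) of responding genes. Gamma-activated sites (GAS) are another class of interferon-responsive DNA element. Besides coding genes, long noncoding RNAs, pseudogenes and unannotated transcripts near interferon-stimulated genes are known to respond, and some are read from the opposite strand of a coding gene or from a promoter shared with it.

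The 102 probes split into 19 with a RefSeq noncoding name (NR_ for curated, XR_ for predicted records) and 83 unnamed ones. The unnamed probes comprised 28 for genomic intervals, 28 for Ensembl transcripts, 23 for GenBank sequences and 4 for other catalogue entries. Of the 19 noncoding probes, 14 matched 12 genes of the RefSeq annotation (GRCm38.p6) and 5 matched none. None of the unnamed entries could be placed as coding or noncoding with the tables used here, so they may include transcripts of coding genes.

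Promoter windows from RefSeq (GRCm38.p6; 250 bases before to 50 after the start) were found for 8 of the 12 matched genes. They were searched on both strands for the ISRE letters GAAANNGAAA, whose reverse complement is TTTCNNTTTC, and for the GAS letters TTCNNNGAA, which read the same on both strands. The ISRE letters were present in 2 of the 8 windows and the GAS letters in 1, against 3.44% and 8.30% of all 32851 promoter windows of that length. The windows with a match are shown first, because these genes neighbour the interferon-related genes Parp12 and Irf1, and the window of AW112010, which had the largest difference of the 8 genes in the deposited values, is shown for comparison. Capitals mark the matches.

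4930599N23Rik promoter, chr6:39118223-39118522, plus strand: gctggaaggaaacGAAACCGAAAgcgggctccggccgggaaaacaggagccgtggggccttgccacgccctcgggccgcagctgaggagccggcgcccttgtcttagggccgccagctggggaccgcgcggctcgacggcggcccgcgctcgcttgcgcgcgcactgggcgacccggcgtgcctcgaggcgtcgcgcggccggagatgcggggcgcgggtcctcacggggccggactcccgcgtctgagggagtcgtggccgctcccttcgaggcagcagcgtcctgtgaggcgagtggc
Gm12216 promoter, chr11:53859207-53859506, minus strand: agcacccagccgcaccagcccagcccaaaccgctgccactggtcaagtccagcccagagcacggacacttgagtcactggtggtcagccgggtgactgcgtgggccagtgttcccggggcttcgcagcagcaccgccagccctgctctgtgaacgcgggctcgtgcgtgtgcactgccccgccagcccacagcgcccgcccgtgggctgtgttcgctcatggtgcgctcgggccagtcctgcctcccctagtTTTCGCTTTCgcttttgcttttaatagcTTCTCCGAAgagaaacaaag
AW112010 promoter, chr19:11050517-11050816, minus strand: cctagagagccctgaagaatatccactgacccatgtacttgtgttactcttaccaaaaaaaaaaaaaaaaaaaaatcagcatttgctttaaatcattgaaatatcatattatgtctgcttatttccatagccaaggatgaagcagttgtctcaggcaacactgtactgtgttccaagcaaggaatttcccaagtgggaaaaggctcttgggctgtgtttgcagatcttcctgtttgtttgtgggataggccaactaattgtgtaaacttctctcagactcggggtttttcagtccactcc

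In 4930599N23Rik the ISRE letters started at position -237 relative to the start site. This window overlapped the promoter window of Parp12, which lies on the opposite strand, by 223 bases, and the match lay outside that shared stretch. In Gm12216 the reverse complement of the ISRE letters and the GAS letters lay just after the start site. The window of AW112010 held neither, which says only that these letters are not in this window. The windows of 4933412E12Rik and BC051226 held neither motif, and they overlapped those of Rab3ip and Daxx on the opposite strand by 208 and 234 bases.

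Over the 22 arrays, the intensity at the 75th percentile ran from 619 to 1201, 47.9% to 57.1% of probes were well above background, and 0 probe spots were saturated. Across the probes tested, samples of the same date deviated from their group means together, with a median correlation of 0.44 over 52 pairs against -0.19 over 102 pairs from other dates. Deviations within a group sum to 0, so shared deviation by date makes pairs from other dates negative, and -0.19 is not a separate baseline. The 10 markers listed for the line, which include Vim and Cdh2 beside keratins, were all well above background on the 6 untreated arrays. Of leukocyte markers, 6 of 10 reached that level on 0 of these arrays. So did 2 of 4 endothelial and 2 of 4 fibroblast and adipocyte markers. The other 4 leukocyte markers, 1 endothelial marker and 2 fibroblast and adipocyte markers were well above background on all 6. Among them Dcn was bright, with a mean level of 6.43 in untreated cells, where the keratin gene Krt8 was at 6.13. None of these markers passed the test in the 4 tested comparisons below (limma, 0 at adjusted p under 0.05 and 0 at an unadjusted p under 0.05).

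For 6 of the 102 probes the difference rested on a single array. When the highest of the 3 arrays of 1000 IU/ml IFN epsilon was left out, the deposited difference of these 6 fell under 0.5, while the next lowest of the other 96 kept 0.92. For Gm30687, a predicted RNA gene, the levels at 1000 IU/ml IFN epsilon were -7.92, 9.30 and -4.18, against -7.99, -7.99 and -7.54 in untreated cells. The interval probe at chr16:94521875-94545750 lay at 0.28, 9.43 and 0.45, against 0.29, 0.22 and 0.53 in untreated cells. Both were high on the second replicate of that group. The high spots of ENSMUST00000159397, U17282, AK142864 and the probe at chr3:126989696-127112471 were marked as outliers by the scanner software, so their levels were dropped from the fit. None of the 6 was called in the comparisons below, and counts are given with all 102 probes. ENSMUST00000159397, with the array of its high value dropped, was the only one of the 102 whose mean level at 1000 IU/ml was lower with IFN epsilon than with IFN beta, by -0.67 (log2).

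**Figure D1:**
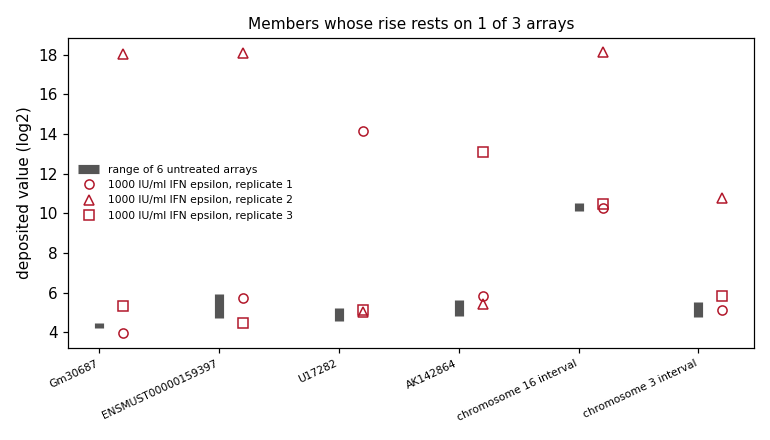
Deposited log2 values (vertical axis) of the 6 probes whose difference rested on 1 array: grey bars span the 6 untreated arrays and open symbols are the 3 replicates of 1000 IU/ml IFN epsilon. In each probe 1 symbol stands far above the grey bar, and the other symbols lie near or inside it.

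Over all 102 probes the median log2 difference from untreated cells grew with dose for both interferons and was larger for IFN epsilon at each dose. For IFN epsilon it was 0.95 at 10 IU/ml, 2.39 at 100 IU/ml and 3.32 at 1000 IU/ml. For IFN beta it was 0.28, 0.93 and 2.77 at the same doses. The median over all 31465 probes tested lay between -0.05 and 0.005 in these comparisons. Without the 6 probes that rest on 1 array the medians were 1.02, 2.47 and 3.37 for IFN epsilon and 0.28, 0.95 and 2.86 for IFN beta. At 1000 IU/ml the choice of probes favoured IFN epsilon, and within date 3 the order of the interferons was reversed (median -0.52). IFN beta at 10 and 100 IU/ml lacks date 3, so these medians cover unlike dates. Within dates 1 and 2 the median of IFN epsilon minus IFN beta was 0.50 and 0.77 at 10 IU/ml, and 1.00 and 1.52 at 100 IU/ml. In untreated cells 54 of the 102 probes were well above background on 6 of 6 arrays and 24 on 0 of 6, so for these 24 only a lower bound of the difference exists. They were set at that bound where an array of the treated group was well above background and the bound lay above 0. Otherwise they kept the fitted difference. The median was then 1.99 at 100 IU/ml IFN epsilon, 2.83 at 1000 IU/ml IFN epsilon and 2.40 at 1000 IU/ml IFN beta.

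All 102 probes passed the filter on dim probes, 6 of them only through the 1000 IU/ml IFN epsilon group. At 10 IU/ml IFN epsilon, all samples lay above all untreated samples for 57 of the 102 probes, beside 1.82% of all probes tested. At 100 IU/ml the count was 89, beside 3.3%. For IFN beta the counts were 21 at 10 IU/ml, 65 at 100 IU/ml and 93 at 1000 IU/ml, beside 5.09%, 4.49% and 5.61%. As the untreated arrays took part in the choice of these probes, no more is read from these counts. The lowest dose without overlap was 10 IU/ml for 57 probes with IFN epsilon and for 21 with IFN beta, 100 IU/ml for 32 and 44, and 1000 IU/ml for 6 and 28. It was reached at no dose for 7 and 9 probes. Group means stood in the order of dose for 98 probes with IFN epsilon and for 92 with IFN beta.

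Noncoding and unnamed probes were chosen by the same threshold, so their medians against untreated cells are a description. At 1000 IU/ml IFN epsilon the median difference from untreated cells was 3.43 in the 19 noncoding probes and 3.29 in the 83 unnamed probes. At 10 IU/ml IFN epsilon it was 0.42 and 1.06. All samples at 10 IU/ml IFN epsilon lay above all untreated samples for 6 of the 19 noncoding and 51 of the 83 unnamed probes. The difference between these classes was not tested.

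**Figure D2:**
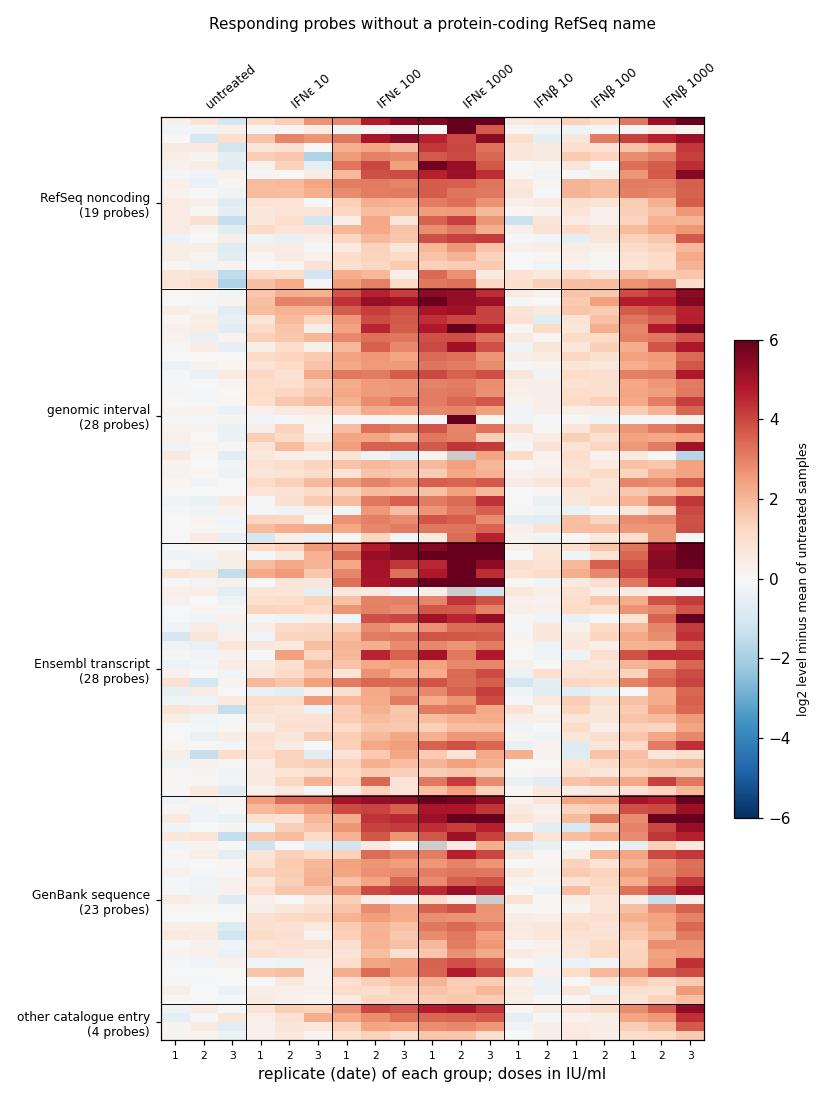
Level of each of the 102 probes (rows, by class and, within a class, by deposited difference) in the 19 samples (columns, by group and replicate), as log2 difference from the mean of the untreated samples, with colours ending at 6 and grey for dropped values. The columns of 100 and 1000 IU/ml IFN epsilon and of 1000 IU/ml IFN beta are red in most rows, and those of 10 IU/ml IFN beta are near white.

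The 12 noncoding genes matched to the annotation included AW112010 (NR_102366), a transcript described as noncoding from which a small protein is made in macrophages. Of those well above background on all 6 untreated arrays, it had the largest difference that held in all 3 replicates. Its levels were -2.62, -2.56 and -4.26 in untreated cells, -2.44, -2.23 and -3.13 at 10 IU/ml IFN epsilon, -0.997, -0.759 and -1.21 at 100 IU/ml, and 1.096, 0.880 and 0.093 at 1000 IU/ml. With IFN beta they were -2.48 and -2.60 at 10 IU/ml, -2.18 and -2.28 at 100 IU/ml, and -1.45, -0.885 and 1.1 at 1000 IU/ml. At 100 and 1000 IU/ml of either interferon all samples lay above all untreated samples, the lower of these doses of IFN beta by a narrow gap. The mean difference from untreated cells was 3.84 ± 0.56 (SE, n = 3) at 1000 IU/ml IFN epsilon and 2.73 ± 0.56 at 1000 IU/ml IFN beta. AW112010 passed the test in none of the 4 comparisons tested below. From 10 to 1000 IU/ml IFN beta it differed by 2.13 ± 0.63 (limma, adjusted p = 0.283). Its coding neighbours Ms4a18 and Ms4a8a, members of the Ms4a family of membrane proteins, did not pass the filter on dim probes.

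AW011738 (NR_030671) was the noncoding gene with the least spread, and its 2 probes gave nearly the same values. On probe A_55_P2072115 the levels were -4.90, -5.62 and -5.10 in untreated cells, -3.29, -3.26 and -2.82 at 10 IU/ml IFN epsilon, -2.13, -2.10 and -2.23 at 100 IU/ml, and -1.59, -1.63 and -2.01 at 1000 IU/ml. With IFN beta they were -4.59 and -5.06, then -3.17 and -3.37, then -2.08, -2.12 and -1.63. At 10 IU/ml all samples of IFN epsilon lay above all samples of IFN beta, and the difference passed the test (log2 1.70 ± 0.24, adjusted p = 0.0296; 1.66 ± 0.25 on the second probe, adjusted p = 0.0296). It also rose from 10 to 1000 IU/ml IFN beta, by 2.89 ± 0.24 (adjusted p = 1.64e-05). AW011738 lies between Isg15, which encodes a ubiquitin-like antiviral protein, and Plekhn1, and it overlaps Perm1. Perm1 was well above background on 0 of 6 untreated arrays, and it passed the test between 10 and 1000 IU/ml IFN beta (limma, adjusted p = 0.0397). The mean level of Perm1 at 10 IU/ml IFN beta was -7.80, dimmer than the -7.22 of untreated cells, and at 1000 IU/ml it was -5.58. The size of that rise is therefore not exact.

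Isg15 differed from untreated cells by 2.61 ± 0.40, 3.597 ± 0.40 and 3.84 ± 0.40 at the 3 doses of IFN epsilon, where AW011738 differed by 2.08 ± 0.21, 3.05 ± 0.21 and 3.46 ± 0.21. Plekhn1 differed by 0.16 ± 0.32, 0.39 ± 0.32 and 0.44 ± 0.32. The overlapping Perm1, too dim in untreated cells for an exact difference, had fitted differences of 0.75 ± 0.43, 1.43 ± 0.43 and 2.81 ± 0.43. AW011738 thus stood nearer to Isg15 than to Plekhn1 or to the fitted values of Perm1 at each dose.

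Beside a coding gene on the opposite strand lay 4930599N23Rik, BC051226 and 4933412E12Rik. For 4930599N23Rik (NR_045813) the levels were -4.54, -4.86 and -5.73 in untreated cells, and -2.25, -1.95 and -2.87 at 1000 IU/ml IFN epsilon. At 1000 IU/ml IFN beta they were -3.12, -2.74 and -2.45. Both treated groups lay above all untreated samples, and the rise from 10 to 1000 IU/ml IFN beta was 1.69 ± 0.35 (adjusted p = 0.0297). Parp12, which encodes a mono-ADP-ribosyltransferase with antiviral activity, rose by 2.79 ± 0.34 over the same doses (adjusted p = 0.000523). The gene overlapping 4930599N23Rik, the histone demethylase gene Kdm7a, differed by -0.42 ± 0.54 (adjusted p = 1.00).

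BC051226 (NR_045146) was among the brighter noncoding probes, with levels of 0.12, -0.22 and 0.26 in untreated cells and 1.47, 1.57 and 1.64 at 1000 IU/ml IFN epsilon. It rose by 1.48 ± 0.31 from 10 to 1000 IU/ml IFN beta (adjusted p = 0.0345). Daxx, the histone chaperone gene whose promoter window it shares, rose by 2.35 ± 0.46 (adjusted p = 0.0195).

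4933412E12Rik (NR_038025) lay at -0.49, -0.69 and -1.53 in untreated cells and at 0.81, 1.13 and 0.49 at 1000 IU/ml IFN epsilon, with no overlap. Its partner Rab3ip, which encodes an exchange factor for Rab GTPases, differed from untreated cells by 0.53 ± 0.22 at that dose, where 4933412E12Rik differed by 1.71 ± 0.32. Neither passed the test between 1000 and 10 IU/ml IFN beta (log2 1.36 ± 0.36, adjusted p = 0.149, and 0.48 ± 0.24, adjusted p = 1.00).

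Gm12216 (NR_033332), the long noncoding RNA gene next to Irf1, showed its difference mainly at the highest dose. Its levels were -3.43, -3.42 and -4.50 in untreated cells, -3.33, -3.27 and -3.83 at 10 IU/ml IFN epsilon, -3.19, -2.39 and -3.08 at 100 IU/ml, and -1.77, -1.16 and -2.08 at 1000 IU/ml. The mean difference from untreated cells was 2.11 ± 0.33 at 1000 IU/ml IFN epsilon and 1.49 ± 0.33 at 1000 IU/ml IFN beta. Irf1, a transcription factor of interferon responses, differed by 0.96 ± 0.37 and 1.099 ± 0.37. Slc22a5, the carnitine transporter gene on its other side, was at 0.05 and 0.06.

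Genes with close relatives were the schlafen pseudogene Slfn10-ps (NR_073523) and H2-Q5 (NR_051981), a locus among the MHC class I genes whose transcript is annotated as noncoding. On probe A_55_P2135200, Slfn10-ps lay at -2.10, -2.26 and -2.96 in untreated cells, at 0.13, 0.58 and 0.43 at 100 IU/ml IFN epsilon and at 1.26, 1.51 and 1.02 at 1000 IU/ml. At 10 IU/ml the third replicate was at -4.27, below every untreated sample, while the other replicates were at -0.98 and -0.81. Its neighbours Slfn8 and Slfn2, schlafen family genes, rose from 10 to 1000 IU/ml IFN beta by 4.73 ± 0.53 (adjusted p = 0.000218) and 2.24 ± 0.48 (adjusted p = 0.0375). Slfn10-ps itself, on probe A_55_P2135200, differed by 2.75 ± 0.74 over the same doses, which did not pass the test (limma, adjusted p = 0.172). Sequence shared between schlafen copies, and between H2-Q genes, may bind the same probe, so these values are uncertain.

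H2-Q5 lay at -3.62, -3.55 and -5.86 in untreated cells and at -0.96, -1.603 and -3.78 at 1000 IU/ml IFN epsilon. The third replicate was low in both groups, and the groups overlapped, while within dates 1, 2 and 3 the level was higher by 2.66, 1.95 and 2.08. Its neighbour H2-Q4 differed from untreated cells by 0.38 at that dose.

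9530082P21Rik (NR_015472) lay at -4.10, -4.37 and -5.35 in untreated cells and at -1.55, -1.32 and -1.91 at 1000 IU/ml IFN epsilon. It overlaps Flywch1, a zinc finger gene that differed from untreated cells by 0.05 at that dose, where 9530082P21Rik differed by 3.02 ± 0.45. The RNA gene Gm35028 (XR_380289), between the autophagy gene Atg5 and Prdm1, was well above background on 0 of 6 untreated arrays and 3 of 3 arrays of 1000 IU/ml IFN epsilon. Its level there was at least 3.96-fold higher, a bound set by the dimmest probes that the scanner software called well above background. Atg5 differed by -0.09. Gm35028 passed the filter on dim probes only through 1000 IU/ml IFN epsilon, and it was called in none of the tested comparisons. With 1000 IU/ml IFN beta, 1 array showed it well above background. Gm30178 (XR_376954) lay at -5.78, -5.29 and -7.60 in untreated cells and at -2.68, -2.12 and -3.58 at 1000 IU/ml IFN epsilon. Its neighbours Lgi2 and Sepsecs differed by 0.32 and -0.03, and Sec23a, beside Gm30687, by -0.13.

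The 5 noncoding probes with no gene in the annotation used here were XR_387206, XR_168557, XR_392864, XR_397994 and NR_033577. XR_387206 lay at -6.19, -5.69 and -7.54 in untreated cells, where 1 of 6 arrays showed it well above background, and at -0.89, 0.08 and 0.27 at 1000 IU/ml IFN epsilon. XR_168557 lay at -1.17, -2.11 and -0.10 in untreated cells and at 3.49, 2.83 and 4.30. For XR_392864 and XR_397994, 0 of 6 untreated arrays showed a signal well above background, and with the highest dose of IFN epsilon their levels were at least 12.6-fold and at least 5.85-fold higher. From 10 to 1000 IU/ml IFN beta all 5 rose, the last of them, NR_033577, by 1.77 ± 0.35 (adjusted p = 0.0221) and XR_168557 by 4.40 ± 0.82 (adjusted p = 0.0149).

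**Figure D3:**
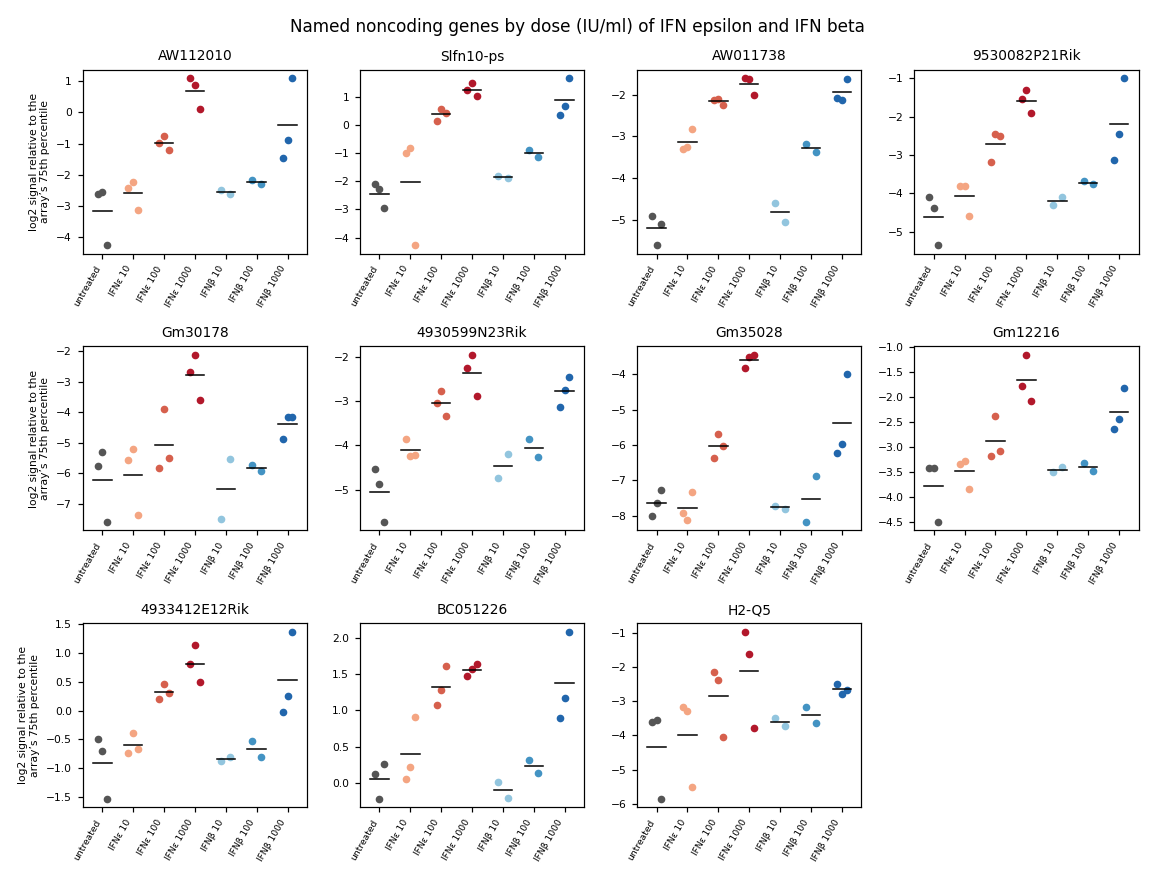
Levels (log2 signal relative to the array's 75th percentile, vertical axes) of 11 named noncoding genes, 1 probe each, in untreated cells and at each dose (IU/ml) of IFN epsilon and IFN beta; points are samples and lines are group means. AW011738 has the tightest groups, and in AW112010, H2-Q5 and Gm30178 the third untreated sample lies lowest.

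**Figure D4:**
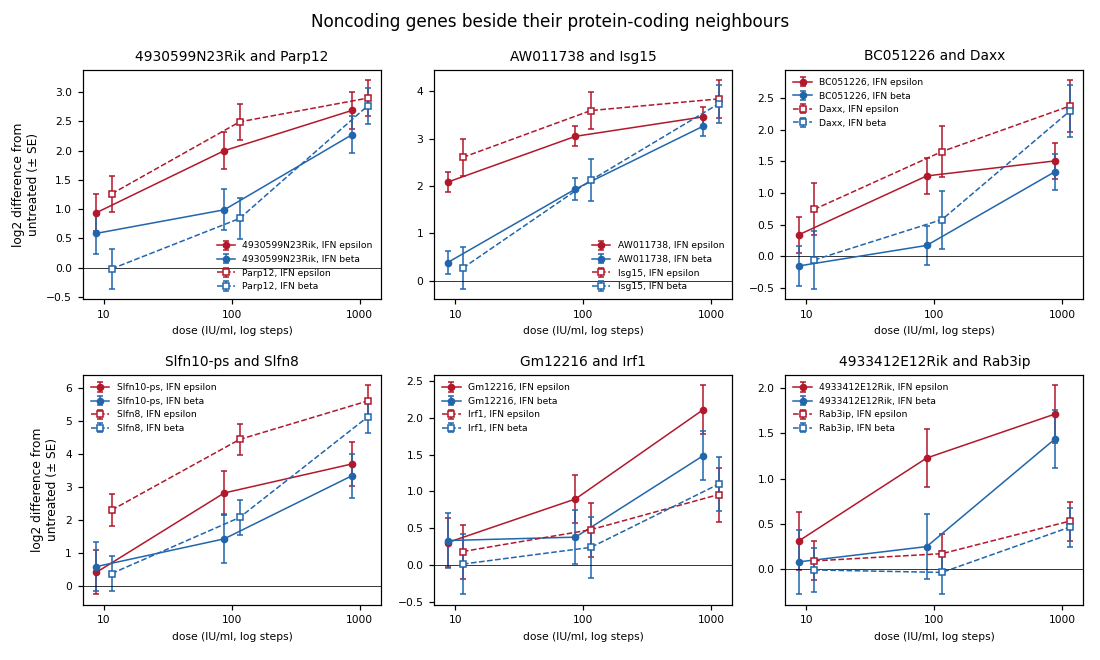
Log2 difference from untreated cells (vertical axes, mean ± SE of the fit, n = 3 or 2) at each dose of IFN epsilon (red) and IFN beta (blue) for 6 noncoding genes (filled circles) and a coding neighbour (open squares). AW011738 runs close to Isg15 and 4930599N23Rik close to Parp12, whereas 4933412E12Rik lies above Rab3ip.

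The 28 interval probes came from 15 separate loci, 7 of which held 2 or more of them. In all, 46 interval probes on the array overlapped these loci, and 18 of the 46 were not chosen. Coordinates are those of the array design, on mouse build mm9, the build named in the scanner file headers, and each name ends in F or R, whose meaning the files do not state. Chromosome 1 held 14 of the 28 probes in 5 loci. At chr1:175654606-175672031, 6 of 6 probes on the array were chosen, and at chr1:175705225-175717250, 3 of 3. The largest deposited difference at the latter, 4.83, was on an R probe (A_30_P01023338), which lay at -2.75, -2.69 and -3.13 in untreated cells, at 0.89, 1.76 and 1.27 at 100 IU/ml IFN epsilon and at 2.49, 2.41 and 1.55 at 1000 IU/ml. At 1000 IU/ml IFN beta it lay at 1.06, 1.53 and 2.55, so both interferons at this dose were above all untreated samples. The second R probe of the interval differed from untreated cells by 2.995 at 1000 IU/ml IFN epsilon and the F probe by 2.54. At chr1:175660642-175671878, which lies inside the first of these loci, an R probe (A_30_P01030969) had a deposited difference of 4.45. Other loci were mixed, such as chr1:87343550-87409907 with 2 of 5 probes chosen and chr2:174991757-174997818 with 1 of 4.

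In 6 loci probes of both suffixes were chosen. At chr6:3333825-3349525 the R probe lay at -4.36, -4.48 and -4.31 in untreated cells and at -1.30, -0.92 and -0.67 at 1000 IU/ml IFN epsilon. The F probe of this interval was well above background on 0 of 6 untreated arrays, and its levels of -3.87, -3.85 and -3.56 with 1000 IU/ml IFN epsilon were at least 3.53-fold higher. At chr6:57583950-57624216 the F probe was the brighter, at -0.18, -0.83 and -0.19 in untreated cells and 3.43, 3.47 and 2.84 at 1000 IU/ml IFN epsilon, and the R probe was at least 5.03-fold higher. At chr11:119250824-119286324 the F and R probes differed by 2.13 and 2.07.

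At chr7:111526943-111545093, by contrast, an R probe was chosen and neither F probe. It lay at -5.11, -5.23 and -4.94 in untreated cells, at -3.28, -2.10 and -2.13 at 10 IU/ml IFN epsilon, at -0.78, 0.15 and -0.07 at 100 IU/ml, and at 0.85, 0.16 and 0.08 at 1000 IU/ml. With IFN beta it lay at -5.23 and -5.10, then -3.51 and -2.61, then -0.40, -0.36 and 0.47. Every treated group except 10 IU/ml IFN beta lay above all untreated samples. The 2 F probes of the same interval, well above background on 6 of 6 untreated arrays, differed by 0.46 and -0.20 at 1000 IU/ml IFN epsilon, where the R probe differed by 5.46 ± 0.36. A second R probe inside this interval, at chr7:111530578-111539097, was not chosen either, with a deposited difference of 0.84. It was well above background on 0 of 6 untreated arrays and 1 array of 1000 IU/ml IFN epsilon.

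Several interval probes repeated each other. At chr1:85304494-85305390, an interval of 897 bases, both R probes were chosen, with deposited differences of 3.65 and 3.16. The F and R probes of the wider interval chr1:85300475-85331475 were not chosen, with deposited differences of -0.44 and -0.008. Both were well above background on 0 untreated arrays and on 0 arrays of 1000 IU/ml IFN epsilon. Probes of 1 interval can read the same transcript, so the 28 probes are not independent.

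Among the 28 probes for Ensembl transcripts (25 names), ENSMUST00000096862 had the largest deposited difference of all 102. Its levels were -4.02, -3.78 and -3.93 in untreated cells, -2.73, -2.54 and -1.34 at 10 IU/ml IFN epsilon, -1.18, 0.83 and 1.56 at 100 IU/ml, and 1.62, 2.70 and 2.94 at 1000 IU/ml. With IFN beta they were -3.59 and -3.21, then -2.99 and -2.26, then -0.73, 1.32 and 3.96. Every treated group lay above all untreated samples, and the replicates of 1000 IU/ml IFN beta were far apart. From 10 to 1000 IU/ml IFN beta it rose by 4.92 ± 1.02 (adjusted p = 0.0303).

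ENSMUST00000192876 was well above background on 0 of 6 untreated arrays. Its level was at least 24.9-fold higher with 1000 IU/ml IFN epsilon and at least 11.2-fold higher with 1000 IU/ml IFN beta. ENSMUST00000133888 and ENSMUST00000138143 had deposited differences of 4.14 and 4.13. The 3 probes for ENSMUST00000093902, all well above background on 6 of 6 untreated arrays, differed from untreated cells by 1.55, 2.09 and 1.72 at 1000 IU/ml IFN epsilon and by 1.46, 2.05 and 1.69 at 1000 IU/ml IFN beta. ENSMUST00000172726 varied widely without treatment, at 1.54, -0.195 and 2.26, and with 1000 IU/ml IFN epsilon it lay at 2.77, 1.965 and 3.47, so its groups overlapped.

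Of the 23 GenBank sequences, AK138249 had the largest deposited difference, 5.14. It lay at -5.23, -4.70 and -4.84 in untreated cells, at -2.42, -1.59 and -1.47 at 10 IU/ml IFN epsilon, at 0.02, 0.33 and 0.38 at 100 IU/ml, and at 1.38, 0.82 and 0.40 at 1000 IU/ml. With IFN beta it lay at -4.66 and -4.14, then -2.57 and -2.55, then 0.08, -0.21 and 1.06. Every treated group lay above all untreated samples. BC030186 came next with a deposited difference of 4.70, at -1.63, -2.03 and -1.75 in untreated cells and 3.07, 3.02 and 2.47 at 1000 IU/ml IFN epsilon. AK156907 was well above background on 0 of 6 untreated arrays and at least 31.3-fold higher at 1000 IU/ml IFN epsilon. AK080381 was measured by a second probe that was not chosen and that 0 of 6 untreated arrays showed well above background, with a deposited difference of 1.38 against 2.73.

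The 4 other entries were NAP030094-1, TC1642106, NAP112620-1 and NP883496. Their deposited differences were 3.97, 3.51, 2.82 and 1.54.

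The comparisons that use neither the untreated nor the 1000 IU/ml IFN epsilon samples can be tested, and 4 were (limma, 1 fit over all 7 groups, p-values adjusted over 31465 probes). Between 1000 and 10 IU/ml IFN beta, 68 of the 102 probes rose, beside 0.966% of all probes tested, and 0 fell (0 also at an unadjusted p under 0.05, where 92 were higher). Of the 6 probes that passed the filter only through 1000 IU/ml IFN epsilon, 1 was called, BC023105, which was well above background on 0 arrays of 10 and 1 array of 1000 IU/ml IFN beta, and 67 were called without these 6. The median difference was 2.53, against -0.03 over all probes. It was 2.15 with probes that were not well above background at 10 IU/ml set at their bound, where a bound above 0 existed. The called probes comprised 24 of the 28 interval probes, 18 of the 28 Ensembl probes, 15 of the 23 GenBank probes, 9 of the 19 noncoding probes and 2 of the 4 others. The smallest adjusted p-values were those of AK138249 (4.71 ± 0.38, adjusted p = 1.43e-05), the R probe at chr7:111526943-111545093 (5.06 ± 0.41, adjusted p = 1.43e-05) and AW011738. Within date 1 the median difference was 1.82 and 97 probes were higher, and within date 2 it was 2.43 and 99 were higher. Without replicate 1 24 probes were called and without replicate 2 none (81 at an unadjusted p under 0.05), but either leaves 10 IU/ml IFN beta with 1 sample, which is assumed to vary like the other groups. With normexp background correction the median was 1.45.

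Between 100 and 10 IU/ml IFN epsilon, 6 of the 102 probes rose, beside 0.0572% of all probes tested, and 0 fell (80 were higher and 0 lower at an unadjusted p under 0.05). They were AK138249 (2.07 ± 0.34), the R probe at chr7:111526943-111545093 (2.27 ± 0.36), R probes at chr1:175705225-175717250 (2.17 ± 0.34) and chr1:175654606-175672031 (1.27 ± 0.19), ENSMUST00000155076 (1.57 ± 0.24) and BC010546 (1.15 ± 0.19), each with an adjusted p of 0.0416. ENSMUST00000155076 lay at 0.66, 0.63 and 0.55 at 10 IU/ml and at 2.00, 2.36 and 2.17 at 100 IU/ml, and BC010546 at 2.32, 2.55 and 2.70 and at 3.49, 3.92 and 3.63. All 6 were unnamed, and 0 of the 19 noncoding probes were called (14 at an unadjusted p under 0.05). The median over the 102 was 1.26, against -0.04 over all probes, and within dates 1, 2 and 3 it was 1.09, 1.497 and 1.31. With the replicate date as a block 19 probes were called, the 6 among them. Without replicate 1 or without replicate 2 none was called (71 and 37 at an unadjusted p under 0.05), and without replicate 3 16 were. With normexp the median was 0.70.

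At matched doses the interferons were compared at 10 and at 100 IU/ml, where IFN beta had 2 samples. At 10 IU/ml, 5 of the 102 probes were higher with IFN epsilon, beside 0.0604% of all probes tested, and 0 were lower (37 higher and 0 lower at an unadjusted p under 0.05). They were AK138249 (2.58 ± 0.38, adjusted p = 0.0296), both probes of AW011738, the R probe at chr7:111526943-111545093 (2.66 ± 0.41, adjusted p = 0.0329) and ENSMUST00000132930. ENSMUST00000132930 was well above background on 3 of 3 arrays of IFN epsilon and 0 of 2 of IFN beta, at least 1.91-fold higher (adjusted p = 0.0329). The median over the 102 was 0.63, and within dates 1 and 2 it was 0.50 and 0.77. Without replicate 1 or without replicate 2 none was called (37 and 17 at an unadjusted p under 0.05), each of which leaves IFN beta with 1 sample under the same assumption, and without replicate 3 2 were. With normexp the median was 0.35.

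At 100 IU/ml, 11 of the 102 probes were higher with IFN epsilon, beside 0.0985% of all probes tested, and 0 were lower (70 higher and 0 lower at an unadjusted p under 0.05). Of these, 7 were interval probes on chromosomes 1, 6 and 7, and the smallest adjusted p-values were those of AK138249 (2.80 ± 0.38, adjusted p = 0.0114), BC030186 (2.37 ± 0.33, adjusted p = 0.0114) and an R probe at chr1:175654606-175672031 (1.52 ± 0.21, adjusted p = 0.0114). The median over the 102 was 1.30, and within dates 1 and 2 it was 1.00 and 1.52. Without replicate 1 or without replicate 2 none was called (68 and 32 at an unadjusted p under 0.05), again with 1 sample of IFN beta that is assumed to vary like the other groups, and without replicate 3 20 were. AK138249 and the R probe on chromosome 7 passed the test in all 4 comparisons.

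**Figure D5:**
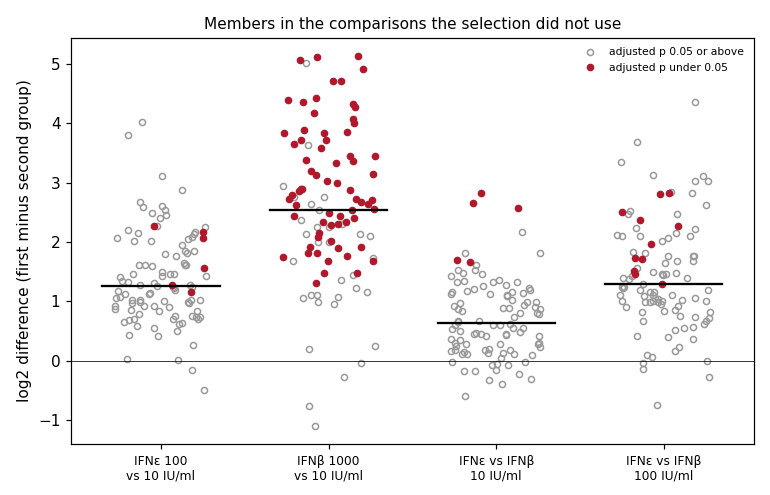
Log2 difference (vertical axis) of the 102 probes in the 4 tested comparisons (horizontal axis); each point is a probe, red where the adjusted p was under 0.05, and lines are medians. Most points lie above 0 in each comparison, with medians of 1.26, 2.53, 0.63 and 1.30 from left to right.

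At 1000 IU/ml the interferons can only be described, since the choice of probes used the IFN epsilon arrays. The mean level was higher with IFN epsilon for 101 of the 102 probes, with a median difference of 0.36. The dates differed in this: within date 1 the median difference was 0.88 and 97 probes were higher with IFN epsilon, within date 2 it was 0.70 with 95, and within date 3 it was -0.52 with 18. The third sample of 1000 IU/ml IFN beta also lay furthest from the untreated sample of its own date, with a median of 3.73 against 2.13 and 2.64 for the other dates.

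Lists of other genes were read in the same 4 comparisons. All 44 core interferon-stimulated coding genes, such as Isg15 and Parp12, were measured, and their median difference from untreated cells was 3.91 at 1000 IU/ml IFN epsilon and 3.64 at 1000 IU/ml IFN beta. Of these, 42 rose between 10 and 1000 IU/ml IFN beta, 4 between 10 and 100 IU/ml IFN epsilon, and 6 were higher with IFN epsilon than with IFN beta at 10 and 6 at 100 IU/ml. Of 25 tested genes from a second list of interferon-regulated loci, 20 measured by probes with a coding and 5 by probes with a noncoding RefSeq name, 3 of which (AW112010, Gm12216 and H2-Q5) are among the genes described above, 11, 0, 0 and 1 were called in these comparisons in that order (20, 16, 7 and 15 at an unadjusted p under 0.05). Of 28 tested widely expressed noncoding RNAs, such as Neat1 and Snhg1, 0 were called in any (1 lower at an unadjusted p under 0.05, with IFN beta), and their median difference from untreated cells at 1000 IU/ml IFN epsilon was -0.10.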

How the data were processed

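Total RNA of 19 samples was measured on 22 single-colour arrays, and 2 arrays labelled as excluded were left out. Per the file headers, the deposited intensity values are background-subtracted processed signals of Agilent Feature Extraction 11.0.1.1, not normalized between arrays, beside median spot signals and flags. The authors' deposited values are on a log2 scale and lie between -1.57 and 18.5. R 3.6.1 and limma 3.42.0 are the tools listed, per the submitters' processing notes, and the normalization is not stated. They served only the choice of probes and an alternative fit, and correlate with log2 scanner signal at 0.989 to 0.994.

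For the tests, processed signals were put on a log2 scale and the 75th percentile of each array was subtracted, without control and outlier spots (79 to 280 spots per array). Probes that 2 or more samples of any group showed well above background were tested with limma 3.58.1 (lmFit and eBayes, 12 residual degrees of freedom, R 4.3.3, the package data.table, version 1.17.8) at a Benjamini-Hochberg adjusted p under 0.05, and the fit was tested on simulated data. Plots used Python 3.11.15, pandas 2.3.3, numpy 2.4.6 and matplotlib 3.10.9. Precision is limited by 2 or 3 arrays per group. Per the design text, replicate numbers mark separate dates, so they pair the samples (same-date correlations of deviations ran from -0.18 to 0.72), and a fit with the date as a block is an alternative. Alternatives changed the scaling, background correction, filter, blocks, samples and replicates.

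Accessions were matched without versions to RefSeq: 3192 of 5026 noncoding probes matched. The highest probe stood for a coding gene. Named were all noncoding probes, the 10 unnamed ones with the largest deposited difference, those at the threshold, the 3 smallest adjusted p-values per comparison, and neighbours. The probes, lists and rules were chosen with earlier results of these data known.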

Additional observations from a re-analysis of the deposited data

How the results depend on the processing

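No result reversed under any alternative run. With the replicate date as a block, 19 probes were called between 100 and 10 IU/ml IFN epsilon (6 without it), 73 between 1000 and 10 IU/ml IFN beta (68), 4 between the interferons at 10 IU/ml (5) and 15 at 100 IU/ml (11), and it changed no other count by over 1.5 times. For 100 against 10 IU/ml IFN epsilon the deposited table gave 11. For the interferons at 10 IU/ml the deposited table gave 2, normexp on the median signals 0 (26 at an unadjusted p under 0.05) and a slide block 2. Median scaling gave 0 in these comparisons and at 100 IU/ml (68, 37 and 65 at an unadjusted p under 0.05), and no filter on dim probes gave 0, 0 and 7 (80, 36 and 70). Fitting only the groups compared called 0 in all 4 comparisons (limma; 80, 89, 46 and 74 at an unadjusted p under 0.05, in the order of epsilon doses, beta doses, 10 IU/ml and 100 IU/ml). Leaving out 1 replicate number gave 0 to 16, 0 to 52, 0 to 2 and 0 to 20 calls in that order. The cause of these moves was not tested. The rule gave 159 probes at a threshold of 1 and 180 on scanner signals scaled to the 75th percentile, of which 97 are among the 102; on quantile-normalized signals it gave 150, at a threshold of 2 70 and with detection on all 3 arrays 96. Without a replicate number it gave 100 to 105, of which 89 to 96 are among the 102. With the highest array of 1000 IU/ml IFN epsilon left out for each probe, 18 of the 102 fell under the threshold of 1.5. Without the 6 probes that rest on 1 array the 4 counts were 6, 68, 5 and 11, and without the 6 that passed the filter only through 1000 IU/ml IFN epsilon 6, 67, 5 and 11, each among 96 probes; both alternatives were chosen after seeing the data. Signal over background limits the 24 probes that no untreated array showed well above background.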

Other observations

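Falls of the same size were rare among probes without a coding RefSeq name. With the threshold turned downward, and detection required on at least 4 of the 6 untreated arrays, 1 probe was found, for ENSMUST00000109581, with a deposited difference of -1.53 between 1000 IU/ml IFN epsilon and untreated cells. It was looked up after the values were seen and was not tested.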
